A study of Mus musculus with 16 samples.

Results

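Lung endothelial cells were compared with liver endothelial cells in adult mice whose endothelium carried an activated form of beta-catenin. The comparison used the 8 libraries that the labels call GOF, of 16 in the series: 4 of lung (replicates B, D, E and F) and 4 of liver (replicates B, E, F and G). GOF mice had the genotype Rosa-Bcat-GOF/+; VE-Cadherin-CreERT2, which joins an activated beta-catenin allele at the Rosa locus, over a wild-type chromosome, to an inducible Cre recombinase under the promoter of VE-cadherin, a gene of endothelial cells. The 8 control libraries, 4 of lung and 4 of liver with the same replicate letters, came from mice that carried Rosa-Bcat-GOF/+ without the Cre, so all 4 groups share the allele. In a contrast of GOF with control, the activated protein and the presence of Cre cannot be told apart. The sources used here give neither an age beyond adult nor how the Cre was induced. Cells were freed by trituration and sorted with a fluorescent antibody to CD31, the product of Pecam1, and the series describes 4 biological samples per condition. The question was which differences between the organs hold when both carry activated beta-catenin, with controls as the background.

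Endothelial cells take a form that fits their organ. Liver sinusoidal endothelium is perforated and clears waste from blood through scavenger receptors, and in the mouse it depends on the transcription factor GATA4 and supplies hepatocytes with Wnt ligands and Rspo3. Lung capillaries form the thin barrier for gas exchange, carry carbonic anhydrase and angiotensin-converting enzyme at their surface, and depend on the forkhead factor Foxf1. Beta-catenin, the effector of canonical Wnt signalling, enters the nucleus when stabilised and activates target genes such as Axin2 together with TCF and LEF factors. In brain endothelium it is needed for the blood-brain barrier.

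Each GOF library held 24880712 to 35603890 counted reads and a read in 15972 to 17897 genes. Levels are given as CPM, read counts relative to library size, with library sizes scaled by the trimmed mean of M-values (TMM) over all 16 libraries, in the order B, D, E and F for lung and B, E, F and G for liver. Differences are log2 fold changes of lung GOF over liver GOF, positive where lung was higher, with adjusted p from edgeR's quasi-likelihood test over all genes. The sorted label held in both organs: Pecam1 had 2218, 2855, 2268 and 2843 CPM in lung GOF, against 2127, 2126, 1981 and 1747 CPM in liver GOF, and Cdh5, which encodes VE-cadherin, had 2280.1 to 3342 CPM in lung GOF and 1598 to 1896 CPM in liver GOF. The summed level of 23 pan-endothelial genes was 22793 to 29202 CPM in lung GOF and 28225 to 35541 CPM in liver GOF (exact two-sided permutation p = 0.0857).

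RNA of other cells was present in both sorts and differed between them. The summed level of 12 alveolar type 2 genes was 2168 to 13376 CPM in lung GOF, against 179 to 208 CPM in liver GOF; Sftpc, their surfactant protein, had 5131, 7571, 1036 and 3830.4 CPM in lung GOF and a read in liver GOF B only. The sums of 10 alveolar type 1 genes (3192 to 5584 CPM in lung GOF, 70.6 to 96.3 CPM in liver GOF), 11 airway epithelial genes (619 to 2572 CPM in lung GOF, 15.7 to 29.3 CPM in liver GOF) and 13 fibroblast genes (2199.6 to 6596 CPM in lung GOF, 284 to 899 CPM in liver GOF) were likewise higher in all lung libraries. The sum of 53 hepatocyte genes, 15 of them at 0 in lung GOF, was 779 to 1320.0 CPM in lung GOF and 2178 to 3490.4 CPM in liver GOF. Alb, the hepatocyte albumin gene, had 6.53, 0, 0 and 0 CPM in lung GOF against 1328, 511, 770.0 and 641 CPM in liver GOF. For each of these 5 sums the exact two-sided permutation p was 0.0286, the smallest that 4 against 4 libraries allow, and 0.0571 after adjustment over 20 lists. A sum of 8 alveolar macrophage genes had the same p values and ran against its name. It was 96.1 to 188 CPM in lung GOF and 761 to 1960 CPM in liver GOF, although 4 of its 7 tested members were higher in lung GOF and 2 lower. The part of all these sums in the differences below was not tested, and in sorted bulk RNA fewer cells of a type and less RNA per cell cannot be told apart.

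**Figure D1:**
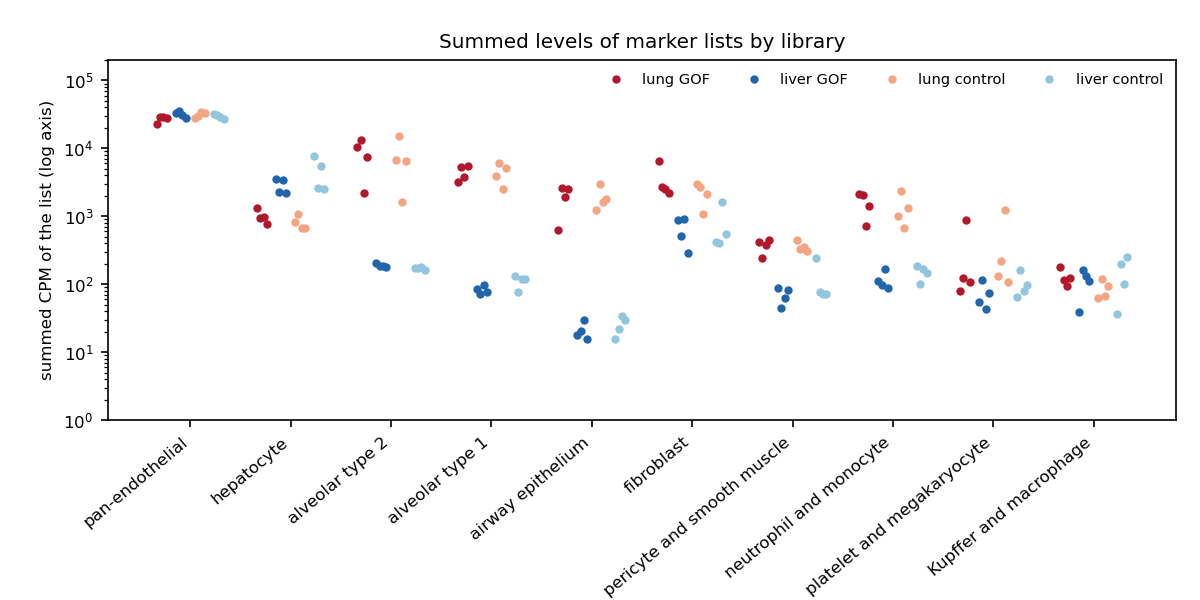
Summed CPM of marker lists of other cells and of the pan-endothelial list in each library, on a log axis, with lung GOF, liver GOF, lung control and liver control from left to right in each list. Each point is 1 library. The alveolar and airway sums of every lung GOF library lie above those of every liver GOF library, while the pan-endothelial sums of the 8 GOF libraries lie between 22793 and 35541 CPM.

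Lung and liver endothelium differed across a large share of the transcriptome under activated beta-catenin. Of 15905 genes tested, 4033 (25.4%) differed between lung GOF and liver GOF at an adjusted p under 0.05, with 2310 (14.5%) higher and 1723 (10.8%) lower in lung. A test against a 2-fold difference called 1148 genes (7.22%) higher and 528 (3.32%) lower, and the CPM of the 4 lung and 4 liver libraries did not overlap for 30.8% of the genes, 16.6% with lung higher and 14.2% with lung lower. In controls 3940 of 15806 genes (24.9%) differed between lung and liver, and the median log2 fold change over all genes was -0.03 in GOF and -0.04 in controls.

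Most organ differences of GOF endothelium were also called in controls. Among the 15264 genes tested in both genotypes, 2839 were called in the same direction, 1712 higher and 1127 lower in lung, which is 71.8% of the GOF calls and 73.8% of the control calls. No gene was called in opposite directions by the quasi-likelihood test. The shared genes had a median absolute log2 fold change of 1.88 in GOF and 1.92 in controls. A further 1116 genes were called in GOF and not in controls, and 1066 of them had the same sign in controls; 1010 were called in controls and not in GOF, and 973 of them had the same sign in GOF. A call in a single genotype is not a difference between genotypes: the test of that difference is given at the end.

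**Figure D2:**
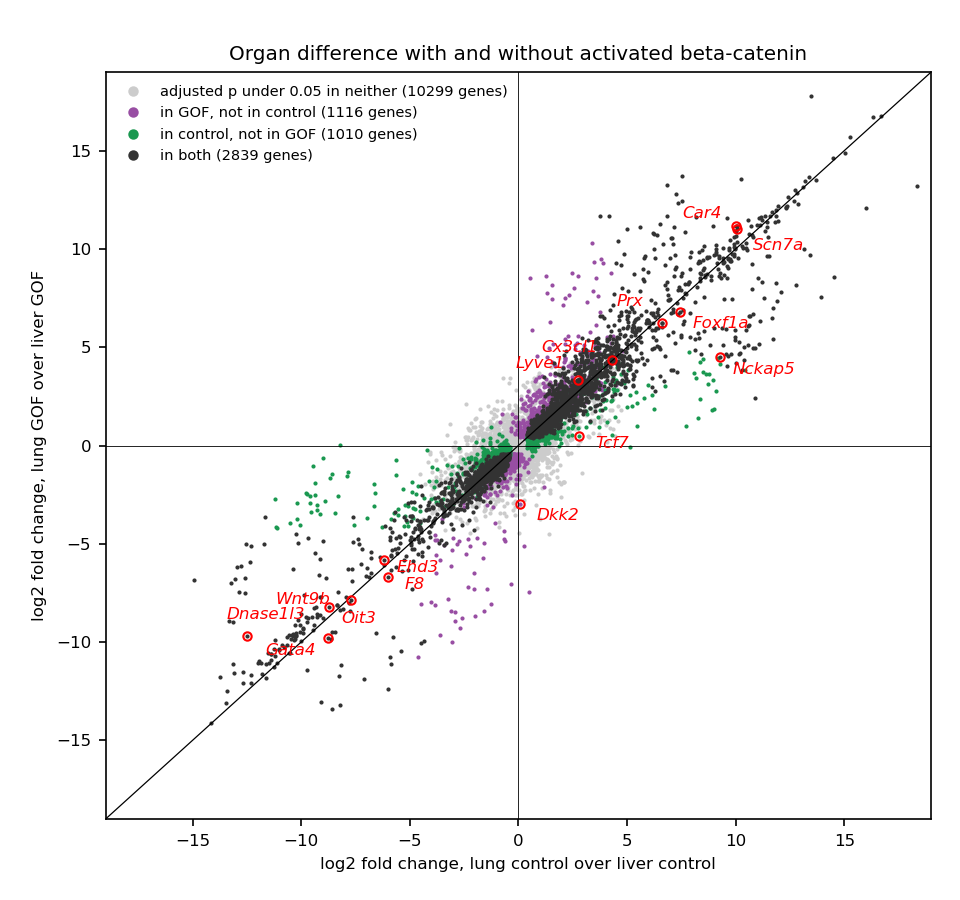
Log2 fold change of lung over liver in GOF libraries (vertical axis) against the same in control libraries (horizontal axis) for the 15264 genes tested in both, 1 point per gene. Colours mark the 2839 genes called in both genotypes, the 1116 called in GOF and not in control, the 1010 called in control and not in GOF and the 10299 called in neither; the called genes lie along the diagonal in the lower left and upper right.

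Transcription factors of the GATA, T-box, forkhead and homeobox families separated the organs in both directions. Of 38 tested, 15 were higher and 15 lower in lung GOF, against 14.5% and 10.8% of all genes, and 29 of the 30 were called alike in controls. Gata4 (ENSMUSG00000021944), the regulator of sinusoidal identity, had 0.672, 0.0615, 0.813 and 0.765 CPM in lung GOF, against 519, 532, 591 and 414 CPM in liver GOF (log2 fold change -9.79 with SE 0.53, adjusted p = 1.06e-06). Every liver library lay far above every lung library, and the log2 fold change in controls was -8.76. Foxf1a (ENSMUSG00000042812), the file's symbol for Foxf1, had 205, 339, 223 and 401 CPM in lung GOF, against 3.201, 2.33, 2.97 and 2.09 CPM in liver GOF (log2 fold change 6.80 with SE 0.30, adjusted p = 4.20e-07). Here all lung libraries were high and all liver libraries near the bottom, and in controls the log2 fold change was 7.43.

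Tbx2 and Tbx3, T-box factors of developing lung, were higher in lung GOF like Foxf1a. Tbx3 had 233, 318, 239 and 525 CPM in lung GOF and 2.62, 0.322, 1.62 and 3.05 CPM in liver GOF, a log2 fold change of 7.42 (SE 0.61). Tbx2 had 279.5, 487, 238 and 564 CPM in lung GOF and 16.2, 66.6, 22.9 and 49.5 CPM in liver GOF, a log2 fold change of 3.35 (SE 0.47); neither gene overlapped between organs, and both were chosen after their values were seen. Other GATA factors ran against Gata4: Gata2, Gata3 and Gata6 were higher in lung GOF, with log2 fold changes of 1.51, 4.14 and 1.53. Maf, a factor of sinusoidal endothelium, was lower in lung GOF at 11.4 to 37.1 CPM, against 161 to 385 CPM in liver GOF (log2 fold change -3.46 with SE 0.39, adjusted p = 0.000105). Several Hox genes sat on the liver side, with Hoxa2, Hoxa3, Hoxa5, Hoxb2, Hoxb3 and Hoxb4 all lower in lung GOF, at log2 fold changes of -2.29 to -0.57. Hoxa4, Hoxb5 and Hoxb6 did not pass the test, at log2 fold changes of -0.95, 1.20 and -1.81. Foxo1, which restrains endothelial growth, did not pass the test (102 to 157 CPM in lung GOF, 146 to 192 CPM in liver GOF, adjusted p = 0.0758). It passed in 3 of 21 alternatives: without lung GOF E (adjusted p = 0.0260), with total counts unscaled and with all 16 libraries in the fit.

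Nkx2-1 and Irx1 were also higher in lung GOF, and both are known factors of lung epithelium. Nkx2-1 had 35.6, 35.3, 29.2 and 47.0 CPM in lung GOF and no read in any liver GOF library, at least 1508-fold higher, taking 3 reads over the liver group as the floor. Irx1 had 37.1, 38.4, 14.7 and 28.7 CPM in lung GOF and 0, 0, 0.119 and 0 CPM in liver GOF, a ratio of 1237 with a counting interval of 423 to 6003. These 2 moved with the alveolar and airway sums given above, and that part was not tested.

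Of the endothelial lists, that of lung capillary genes had the largest median difference towards lung. Of 25 tested, 20 were higher and 2 lower in lung GOF, against 14.5% and 10.8% of all genes. The median log2 fold change was 3.04, and all 22 were called in the same direction in controls. Scn7a (ENSMUSG00000034810), a sodium channel gene, had 799, 730.4, 653 and 1139.9 CPM in lung GOF, against 0.384, 0.251, 0.633 and 0.348 CPM in liver GOF (log2 fold change 11.02 with SE 0.36, adjusted p = 8.62e-08). Prx, the periaxin gene, had 778, 1268, 534 and 1126 CPM in lung GOF, against 9.73, 9.74, 16.6 and 13.2 CPM in liver GOF (log2 fold change 6.25 with SE 0.35, adjusted p = 1.55e-06). Both were low in all 4 liver libraries and high in all 4 of lung. Sema3c, a secreted semaphorin, had 298, 358, 319 and 347 CPM in lung GOF, against 1.505, 5.55, 5.34 and 3.26 CPM in liver GOF (log2 fold change 6.42 with SE 0.39, adjusted p = 2.17e-06). Car4, the membrane-bound carbonic anhydrase of the capillary surface, had 531, 1026, 550.5 and 1294 CPM in lung GOF, against 0.256, 0.752, 0 and 0.455 CPM in liver GOF (log2 fold change 11.15 with SE 0.72, adjusted p = 2.56e-06). The organs did not overlap for either gene. In controls the log2 fold changes of Scn7a, Prx, Sema3c and Car4 were 10.04, 6.61, 5.43 and 10.03.

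The remaining members of that list ran the same way with a few exceptions. Tmem100, Rprml, Fibin and Chst1 were higher in lung GOF with log2 fold changes of 10.17, 6.72, 11.18 and 3.67, and Emp2, which alveolar type 1 cells also express, with 7.93. The 2 lower members were Gpihbp1, which anchors lipoprotein lipase to capillaries, and Ptprb, a phosphatase that opposes Tie2, at -0.95 and -1.12. Leaving out liver GOF E, liver GOF G, lung GOF B, lung GOF E or lung GOF F left 1 lower member. Igfbp7, a secreted binding protein of vessels, did not pass the test, with 1057 to 2065 CPM in lung GOF and 1228 to 1811 CPM in liver GOF.

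**Figure D3:**
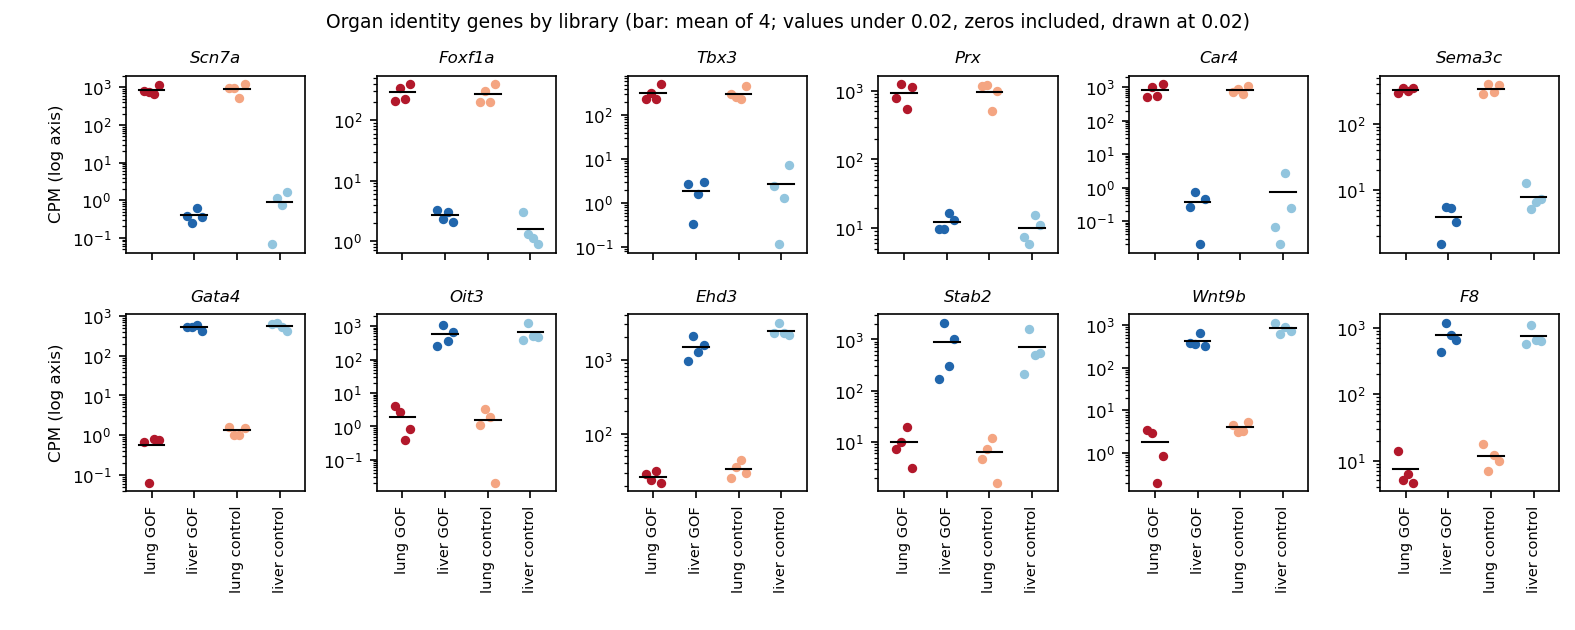
CPM of 6 lung genes (Scn7a, Foxf1a, Tbx3, Prx, Car4 and Sema3c) and 6 liver genes (Gata4, Oit3, Ehd3, Stab2, Wnt9b and F8) in every library on a log axis, with lung GOF left of liver GOF and lung control left of liver control. Points are libraries, bars are means of 4, and values under 0.02 CPM are drawn at 0.02. For each gene the 4 lung GOF points and the 4 liver GOF points do not overlap, and the control points lie on the same sides.

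Sinusoidal scavenger and lectin genes were the mirror image. Of 19 tested, 13 were lower and 2 higher in lung GOF, 78.9% called against 25.4% of all genes. The median log2 fold change was -2.33, and all 15 were called alike in controls. Ehd3 (ENSMUSG00000024065), a membrane trafficking gene, had 28.7, 23.7, 31.0 and 21.4 CPM in lung GOF, against 966, 2119.6, 1269 and 1572 CPM in liver GOF (log2 fold change -5.81 with SE 0.30, adjusted p = 8.61e-07). Msr1, the class A scavenger receptor, had 5.25, 2.12, 4.95 and 1.88 CPM in lung GOF, against 97.9, 164, 218 and 199.8 CPM in liver GOF (log2 fold change -5.57 with SE 0.42, adjusted p = 7.50e-06). Gpr182, an endothelial receptor, had 93.1, 142, 114 and 126 CPM in lung GOF, against 424, 712, 594 and 674 CPM in liver GOF (log2 fold change -2.33 with SE 0.21, adjusted p = 2.26e-05). All 4 lung libraries were below all 4 of liver for these 3 genes.

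The hyaluronan and lectin receptors differed widely among liver libraries. Stab2, the main hyaluronan clearance receptor, had 7.39, 10.2, 19.9 and 3.06 CPM in lung GOF, against 172, 2141, 303 and 1025 CPM in liver GOF (log2 fold change -6.48 with SE 0.92, adjusted p = 0.000454). Liver GOF B was the lowest and liver GOF E the highest of the liver libraries, and the same order held for Mrc1, the mannose receptor, at 176, 1250.5, 379 and 739 CPM in liver GOF, against 21.5 to 39.2 CPM in lung GOF (log2 fold change -4.41). Oit3 had 4.00, 2.64, 0.387 and 0.8288 CPM in lung GOF and 250, 1059.7, 369 and 659 CPM in liver GOF (log2 fold change -8.19). Clec4g, a C-type lectin of sinusoids, had 3.52, 11.3, 1.47 and 8.54 CPM in lung GOF and 275, 1159.8, 414 and 674 CPM in liver GOF (log2 fold change -6.65). Dnase1l3, a secreted DNase, had 2.78, 0.43, 0 and 0.765 CPM in lung GOF and 153, 1826, 460.1 and 903 CPM in liver GOF (log2 fold change -9.68). Even liver GOF B, the lowest for all 5, was above every lung library. Stab1, the paralog of Stab2, differed less, with 484 to 611 CPM in lung GOF and 1845 to 2852 CPM in liver GOF (log2 fold change -1.98 with SE 0.20, adjusted p = 3.98e-05). Stab1, Stab2, Clec4g and Mrc1 were chosen after their values were seen.

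Lyve1 and Tspan7 were the 2 members higher in lung GOF. Lyve1, a hyaluronan receptor of lymphatic and sinusoidal endothelium, had 1434, 1295, 1939 and 1029 CPM in lung GOF, against 130.4, 197, 77.6 and 174 CPM in liver GOF (log2 fold change 3.31 with SE 0.32, adjusted p = 3.24e-05). Every lung library was above every liver library. A list of 8 lymphatic endothelial genes summed to 1499.8 to 2804 CPM in lung GOF and 682 to 1502 CPM in liver GOF (exact two-sided permutation p = 0.0571, adjusted p = 0.0952), and its part in the Lyve1 value was not tested. Of its 8 tested members 2 were higher and 1 lower in lung GOF, 37.5% called against 25.4% of all genes. Its defining marker Prox1 overlapped, with 58.8, 23.0, 61.5 and 12.1 CPM in lung GOF and 93.9, 27.2, 22.7 and 37.0 CPM in liver GOF. Ctsl, a lysosomal protease, did not pass the test, with 326 to 427 CPM in lung GOF and 334 to 874 CPM in liver GOF.

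The ligands Wnt2, Wnt9b, Rspo3 and Bmp2, which liver endothelium sends to hepatocytes, were lower in lung GOF. Of 14 angiocrine and pericentral genes tested, 7 were lower in lung GOF (Wnt2, Wnt9b, Rspo3, Bmp2, Cdh13, Fabp4 and Lgals1) and Thbd was higher. The share called was 57.1%, against 25.4% of all genes, and all 8 were called alike in controls. Rspo3 (ENSMUSG00000019880), a secreted amplifier of Wnt signals, had 9.60, 14.4, 2.17 and 25.1 CPM in lung GOF, against 978, 996, 1168 and 688 CPM in liver GOF (log2 fold change -6.21 with SE 0.64, adjusted p = 5.53e-05). Wnt9b had 3.46, 2.92, 0.194 and 0.861 CPM in lung GOF, against 388, 368, 659 and 324 CPM in liver GOF (log2 fold change -7.84 with SE 0.72, adjusted p = 2.54e-05). Wnt2 had 11.2, 5.13, 4.88 and 2.14 CPM in lung GOF, against 229, 275, 298 and 144 CPM in liver GOF (log2 fold change -5.32 with SE 0.48, adjusted p = 2.20e-05). All 4 lung libraries were far below all 4 liver libraries for these 3 genes. Bmp2, a ligand that hepatocytes need to make hepcidin, had 40.5, 15.3, 32.2 and 9.15 CPM in lung GOF, against 241, 885, 417 and 551 CPM in liver GOF (log2 fold change -4.42 with SE 0.54, adjusted p = 0.000174). Cdh13, a cadherin anchored by a lipid tail, had 111 to 221 CPM in lung GOF and 622 to 939.5 CPM in liver GOF (log2 fold change -2.32 with SE 0.25, adjusted p = 7.08e-05). Without lung GOF B a second member was called higher. Of the 14 genes 6 did not pass the test, among them Selp, which is described with the adhesion genes.

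Wnt receptors and nuclear factors were called in both directions. Of 21 ligands, receptors and factors tested, 5 were higher (Fzd4, Tspan12, Rspo1, Sfrp2 and Wif1) and 7 lower (Fzd6, Fzd7, Lrp5, Tcf7l1, Rspo3, Wnt2 and Wnt9b). The share called was 57.1%, against 25.4% of all genes, and 11 of the 12 were called alike in controls. Fzd4 and its partner Tspan12, which carry Norrin signals in retinal endothelium, were higher in lung GOF with log2 fold changes of 0.94 and 1.30; Fzd4 had 187, 273, 257 and 251 CPM in lung GOF and 111, 149, 129.6 and 117 CPM in liver GOF. Their co-receptor Lrp5 went the other way, with 196, 343, 240.1 and 273 CPM in lung GOF and 588, 846, 648 and 511 CPM in liver GOF (log2 fold change -1.29 with SE 0.22, adjusted p = 0.00141). Tcf7l1, a TCF factor that often represses, had 32.6, 32.3, 31.8 and 27.1 CPM in lung GOF and 85.3, 126, 111 and 95.6 CPM in liver GOF (log2 fold change -1.74 with SE 0.16, adjusted p = 2.53e-05). Fzd4, Lrp5 and Tcf7l1 did not overlap between the organs. Wif1 and Sfrp2 encode secreted Wnt antagonists and had log2 fold changes of 10.47 and 5.09; lung epithelium and fibroblasts are known to express them, and the fibroblast sum was higher in every lung library. Fzd4 and Lrp5 were chosen after their values were seen.

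Ctnnb1, the beta-catenin gene itself, did not separate the organs, with 616, 612, 759.8 and 702 CPM in lung GOF and 840.2, 673, 734 and 737 CPM in liver GOF (log2 fold change -0.14, SE 0.15, adjusted p = 0.573). Whether transcripts of the activated allele were counted within Ctnnb1 is not given, so these counts do not check the genotype labels. Its level in controls was 621 to 732 CPM in lung and 689.9 to 889.5 CPM in liver.

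Genes that beta-catenin activates or that feed back on it were called in both directions. The called genes were 3 higher in lung GOF (Nkd1, Nkd2 and Znrf3) and 3 lower (Dkk2, Rnf43 and Bambi), beside 14.5% and 10.8% of all genes. In controls 5 of the 6 were called alike, Dkk2 being the exception. Nkd1, an intracellular inhibitor of Dishevelled, had 292, 575, 262 and 505 CPM in lung GOF, against 58.3, 122, 63.0 and 55.6 CPM in liver GOF (log2 fold change 2.46 with SE 0.34, adjusted p = 0.000369). Rnf43, a ligase that removes Frizzled receptors, had 6.97, 5.56, 4.76 and 13.0 CPM in lung GOF, against 54.9, 30.7, 28.8 and 24.6 CPM in liver GOF (log2 fold change -2.18 with SE 0.37, adjusted p = 0.00137). Both genes had non-overlapping organs, and their log2 fold changes in controls were 2.51 and -2.31. Dkk2, a secreted modulator of Lrp5 and Lrp6, had 8.13, 6.27, 14.98 and 12.0 CPM in lung GOF, against 91.9, 30.2, 109 and 94.8 CPM in liver GOF (log2 fold change -2.97 with SE 0.41, adjusted p = 0.000367). Liver GOF E was the lowest liver library for Dkk2 and still exceeded every lung library.

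Axin2 and Tcf7 did not pass the test between the organs. Axin2, the usual reporter of the pathway, had 31.0, 21.0, 19.4 and 28.0 CPM in lung GOF, against 71.2, 23.4, 33.7 and 40.5 CPM in liver GOF (log2 fold change -0.75 with SE 0.31, adjusted p = 0.11). The groups overlapped, with liver GOF B above all others, and without liver GOF E Axin2 passed (adjusted p = 0.0382). Tcf7 (ENSMUSG00000000782), a nuclear partner of beta-catenin, had 45.9, 48.3, 36.9 and 54.2 CPM in lung GOF, against 48.0, 18.6, 35 and 31.4 CPM in liver GOF (log2 fold change 0.49 with SE 0.26, adjusted p = 0.201), again with overlap. In controls Tcf7 had 16.03, 30.5, 22.4 and 26.8 CPM in lung and 3.99, 2.58, 2.29 and 5.04 CPM in liver, a log2 fold change of 2.79 (adjusted p = 0.000156). Lef1 was low and scattered, with 3.49, 0, 0.852 and 2.14 CPM in lung GOF and 1.44, 0, 0.752 and 3.08 CPM in liver GOF (adjusted p = 0.908), and was not tested in controls. Myc did not pass the test, with 56.9 to 103 CPM in lung GOF and 72.1 to 223 CPM in liver GOF (adjusted p = 0.0603). It passed in 6 of 21 alternatives, among them DESeq2 and the fit without liver GOF B (adjusted p = 0.00836 in the latter).

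**Figure D4:**
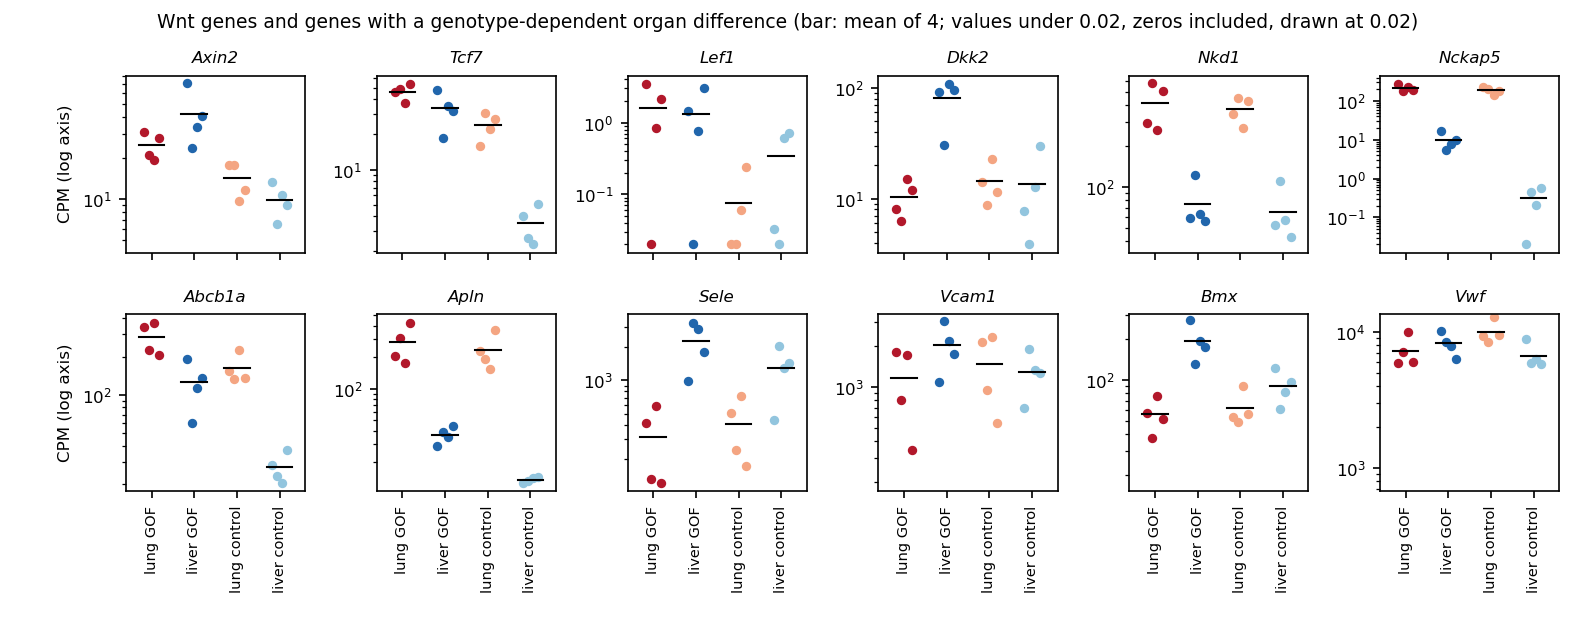
CPM on a log axis of 6 Wnt pathway and genotype-dependent genes (Axin2, Tcf7, Lef1, Dkk2, Nkd1 and Nckap5) and 6 vascular genes (Abcb1a, Apln, Sele, Vcam1, Bmx and Vwf) in every library, with lung GOF left of liver GOF and lung control left of liver control. Points are libraries and bars are means of 4; values under 0.02 CPM are drawn at 0.02. Tcf7 lies between 18.6 and 54.2 CPM in all GOF libraries and between 2.29 and 5.04 CPM in liver controls.

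The regulatory sequence before 4 genes with organ or genotype differences was read from RefSeq promoters of the mouse build GRCm38.p6, each 300 bases from 250 before to 50 after the annotated start, 5′ to 3′ on the gene's strand. Capitals mark matches to the GATA motifs AGATAA and TGATAA on either strand (TTATCT and TTATCA where the match is on the opposite strand); the TCF/LEF motifs CTTTGAA and CTTTGAT were searched as well. Scn7a stands for the lung genes and Wnt2 for the liver ligands, while Sele and Dkk2 are shown because their organ difference depended on genotype in the paired test given at the end.
Scn7a, chr2:66784861-66785160, minus strand: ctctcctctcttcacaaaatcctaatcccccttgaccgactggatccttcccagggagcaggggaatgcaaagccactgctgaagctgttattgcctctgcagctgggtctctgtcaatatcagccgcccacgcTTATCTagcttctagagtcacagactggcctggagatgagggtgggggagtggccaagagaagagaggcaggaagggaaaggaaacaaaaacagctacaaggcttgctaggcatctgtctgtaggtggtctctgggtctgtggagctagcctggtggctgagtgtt
Wnt2, chr6:18030396-18030695, minus strand: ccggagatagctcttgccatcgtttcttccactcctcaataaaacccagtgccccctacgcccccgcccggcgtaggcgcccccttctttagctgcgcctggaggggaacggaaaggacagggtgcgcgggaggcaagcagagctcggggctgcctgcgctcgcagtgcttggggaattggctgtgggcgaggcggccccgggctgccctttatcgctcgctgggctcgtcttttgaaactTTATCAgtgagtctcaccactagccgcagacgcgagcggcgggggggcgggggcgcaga
Sele, chr1:164047984-164048283, plus strand: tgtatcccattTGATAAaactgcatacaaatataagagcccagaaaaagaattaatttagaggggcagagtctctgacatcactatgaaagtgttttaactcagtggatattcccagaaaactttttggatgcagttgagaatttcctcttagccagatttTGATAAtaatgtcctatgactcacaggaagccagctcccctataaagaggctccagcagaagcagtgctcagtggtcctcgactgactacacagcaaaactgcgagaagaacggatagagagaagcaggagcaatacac
Dkk2, chr3:132085042-132085341, plus strand: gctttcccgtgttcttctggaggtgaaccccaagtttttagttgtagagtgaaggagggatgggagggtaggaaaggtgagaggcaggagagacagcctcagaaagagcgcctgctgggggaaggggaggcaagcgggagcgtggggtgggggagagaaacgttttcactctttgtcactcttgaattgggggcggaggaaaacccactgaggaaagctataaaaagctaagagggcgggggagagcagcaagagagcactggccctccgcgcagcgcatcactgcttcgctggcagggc
The Scn7a window held 1 GATA match, 116 bases before the start on the opposite strand, and the Wnt2 window 1 match 9 bases before the start on the opposite strand. Sele held 2 TGATAA matches on its own strand, 239 and 89 bases before the start, and Dkk2 held none; no window held a TCF/LEF match. Either GATA motif occurs in 18.6% and either TCF/LEF motif in 8.65% of the 32851 RefSeq promoter windows of the same length. These matches are descriptions of letters in a window and say nothing of binding, and a lung gene and a liver gene both held one.

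Barrier genes known from brain endothelium were more often higher in lung. Of 29 tested, 15 were higher and 4 lower in lung GOF, 65.5% called against 25.4% of all genes. The median log2 fold change was 1.20, and 15 of the 19 were called alike in controls. Cldn5, the main endothelial tight junction claudin, had 2006, 3368, 1932 and 3407 CPM in lung GOF, against 429, 584, 408 and 463 CPM in liver GOF (log2 fold change 2.52 with SE 0.25, adjusted p = 4.01e-05). Ocln, the occludin gene, had 100.1, 78.8, 96.1 and 113 CPM in lung GOF, against 11.2, 3.72, 7.33 and 5.94 CPM in liver GOF (log2 fold change 3.80 with SE 0.31, adjusted p = 1.20e-05). Spock2, a matrix proteoglycan that alveolar type 1 cells also express, had 169.9 to 449 CPM in lung GOF, against 8.84 to 16.4 CPM in liver GOF (log2 fold change 4.54 with SE 0.33, adjusted p = 5.94e-06). No lung library overlapped a liver library for these 3. Abcb1a, the drug efflux pump of the blood-brain barrier, had 344, 224, 372 and 206 CPM in lung GOF, against 194, 60.4, 113 and 136 CPM in liver GOF (log2 fold change 1.20 with SE 0.33, adjusted p = 0.0202). Its nearest libraries were lung GOF F and liver GOF B, and the call was lost without liver GOF F, lung GOF B or lung GOF E (adjusted p = 0.0582, 0.0506 and 0.0546). The counting could split reads between Abcb1a and its close paralog Abcb1b.

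The 4 barrier genes lower in lung GOF were Cgnl1, Slc7a5, Slc38a3 and Abcc4. Cgnl1, the junction protein paracingulin, had 112, 109, 153 and 109.9 CPM in lung GOF, against 403, 502, 376 and 316 CPM in liver GOF (log2 fold change -1.71 with SE 0.19, adjusted p = 8.52e-05). Slc7a5, Slc38a3 and Abcc4, transporters of amino acids and organic anions, had log2 fold changes of -1.42, -3.81 and -2.001, and without liver GOF G 2 of the 4 passed the test. Slc6a6, the taurine transporter, did not pass it, with 142 to 201 CPM in lung GOF and 123 to 198 CPM in liver GOF.

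Junction genes repeated this split. Of 20 tested, 9 were higher and 3 lower in lung GOF (Jam2, Cdh13 and Cgnl1), 60.0% called against 25.4% of all genes. In controls 11 of the 12 were called alike. Jam2, an adhesion molecule of endothelial junctions, had 304, 246, 444 and 245 CPM in lung GOF, against 2279, 2246, 2956 and 1748 CPM in liver GOF (log2 fold change -2.88 with SE 0.25, adjusted p = 1.82e-05). Cgn, the cingulin gene, had 29.9, 35.6, 38.0 and 36.8 CPM in lung GOF, against 1.15, 2.04, 2.14 and 0.802 CPM in liver GOF (log2 fold change 4.54 with SE 0.33, adjusted p = 6.39e-06). The libraries of the organs did not overlap for either gene. Cgn, Ocln, Cldn3 and Marveld2 are also known in epithelium, whose sums were higher in all lung libraries. Cdh5 passed the test (log2 fold change 0.68, adjusted p = 0.0217) but not without liver GOF F, liver GOF G, lung GOF D or lung GOF F (adjusted p of 0.0585 to 0.0726).

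Several caveolar genes were higher in lung, and Plvap was not. Of 12 genes tested, 7 were higher (Cav1, Cav2, Cavin1, Cd36, Ehd2, Ehd4 and Pacsin2) and none lower by the quasi-likelihood test. The share called was 58.3%, against 25.4% of all genes, and all 7 were called alike in controls. Cav1, the coat protein of caveolae, had 1731, 2048, 2374 and 2370.4 CPM in lung GOF, against 252, 142, 207 and 167 CPM in liver GOF (log2 fold change 3.48 with SE 0.23, adjusted p = 3.01e-06). Cav2, its partner, had 452, 720.3, 643 and 892 CPM in lung GOF, against 125, 149.9, 144 and 141 CPM in liver GOF (log2 fold change 2.28 with SE 0.21, adjusted p = 2.67e-05). Lung libraries were above liver libraries throughout. The alveolar type 1 sum given above was higher in the same libraries, and its part was not tested. Plvap, a protein of endothelial diaphragms, had 919, 1913, 1495 and 1572 CPM in lung GOF and 1691, 1209, 1768 and 1168 CPM in liver GOF, with overlapping groups (log2 fold change 0.03, SE 0.24, adjusted p = 0.949), and was chosen after its values were seen. Aqp1, the water channel, also overlapped at 4256 to 6109 CPM in lung GOF and 4358 to 5443 CPM in liver GOF.

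Arterial and connexin genes did not move as a block. Of 24 tested, 11 were higher and 5 lower in lung GOF (Bmx, Fbln2, Gja1, Gja5 and Jag1). The share called was 66.7%, against 25.4% of all genes, and 12 of the 16 were called alike in controls. Unc5b, a netrin receptor of arteries and tip cells, had 140.2, 146, 108 and 138 CPM in lung GOF, against 46.3, 36.5, 40.5 and 40.6 CPM in liver GOF (log2 fold change 1.71 with SE 0.15, adjusted p = 1.80e-05). Cxcl12, the chemokine that binds Cxcr4, had 131, 369, 319.7 and 295 CPM in lung GOF, against 33.4, 14.6, 29.7 and 35.5 CPM in liver GOF (log2 fold change 3.31 with SE 0.37, adjusted p = 8.59e-05). Jag1, a Notch ligand, had 70.9, 54.0, 73.8 and 65.8 CPM in lung GOF, against 212, 176, 255 and 219.8 CPM in liver GOF (log2 fold change -1.69 with SE 0.17, adjusted p = 3.75e-05). These organs were apart in every library. The arterial connexin genes were on the liver side, with Gja1 at 49.2 to 104 CPM in lung GOF and 176 to 601 CPM in liver GOF (log2 fold change -2.24 with SE 0.36, adjusted p = 0.0011) and Gja5 at a log2 fold change of -1.46. Mgp and Sema3g, a matrix inhibitor of calcification and an arterial semaphorin, were higher in lung GOF with log2 fold changes of 2.78 and 3.21. A sum of 12 pericyte and smooth muscle genes was 245 to 440 CPM in lung GOF and 44.9 to 89.3 CPM in liver GOF. It moved the same way as Mgp and Cxcl12, as did the fibroblast sum, and the part of both sums was not tested. Nrp1, a VEGF co-receptor, did not pass the test, with 899 to 1639 CPM in lung GOF and 1212 to 1804 CPM in liver GOF.

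Venous genes were likewise mixed, with 6 higher and 5 lower of 19 tested (Nr2f2, Ephb4, Nrp2, Flt4 and Car8 lower). The share called was 57.9%, against 25.4% of all genes, and all 11 were called alike in controls. Nr2f2 (COUP-TFII), the factor that specifies veins, had 68.8, 31.4, 49.6 and 36.5 CPM in lung GOF, against 209.8, 156, 198 and 175 CPM in liver GOF (log2 fold change -1.98 with SE 0.24, adjusted p = 0.000166). Bst1 had 101, 117, 141 and 93.6 CPM in lung GOF, against 15.3, 15.7, 25.1 and 14.4 CPM in liver GOF (log2 fold change 2.70 with SE 0.22, adjusted p = 1.22e-05). Aplnr, the apelin receptor, had 34.8, 59.9, 27.9 and 46.7 CPM in lung GOF, against 8.10, 5.44, 4.47 and 3.90 CPM in liver GOF (log2 fold change 2.96 with SE 0.31, adjusted p = 6.22e-05). In none of the 3 did the organs overlap. Slc6a2 (ENSMUSG00000055368), the noradrenaline transporter, had 666, 1018, 1018 and 1077 CPM in lung GOF and a read in liver GOF G alone, at 0.321 CPM. Vwf, von Willebrand factor, did not pass the test, with 5888, 7089, 9943 and 6002 CPM in lung GOF and 10188, 8477, 7857 and 6286 CPM in liver GOF (log2 fold change -0.17, adjusted p = 0.652). The platelet and megakaryocyte sum was 78.2, 123, 895 and 108 CPM in lung GOF and 43.6 to 114 CPM in liver GOF. Like Vwf it was highest among lung GOF libraries in E, and its part was not tested.

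Leukocyte adhesion and cytokine genes were called in both directions. Of 19 tested, 6 were higher and 4 lower in lung GOF (Cxcl9, Cxcl10, Sele and Il33), 52.6% called against 25.4% of all genes. In controls 8 of the 10 were called alike. Cx3cl1, the membrane-bound chemokine fractalkine, had 221, 369.7, 279 and 387 CPM in lung GOF, against 21.1, 14.1, 13.2 and 14.8 CPM in liver GOF (log2 fold change 4.33 with SE 0.25, adjusted p = 1.55e-06). Icam2, a constitutive integrin ligand, had 721, 1228, 755 and 1338 CPM in lung GOF, against 184, 221, 217 and 196 CPM in liver GOF (log2 fold change 2.32 with SE 0.23, adjusted p = 4.53e-05). Both were high in all lung libraries. The interferon-induced chemokines were on the liver side: Cxcl10 had 153, 37.4, 65.5 and 37.1 CPM in lung GOF, against 449.8, 2723, 2795 and 2244 CPM in liver GOF (log2 fold change -4.80 with SE 0.67, adjusted p = 0.000401). Cxcl9 had 6.01, 0.492, 0.348 and 1.05 CPM in lung GOF, against 60.9, 605, 451 and 542 CPM in liver GOF (log2 fold change -7.69 with SE 1.07, adjusted p = 0.000403). Liver GOF B was the lowest liver library for both, though above every lung library. The summed level of 12 Kupffer cell and macrophage genes was also lowest there, with 39.5, 161, 130.3 and 112 CPM in liver GOF, against 92.8 to 180.1 CPM in lung GOF; its defining marker Clec4f was at 0 in every lung GOF library and at 1.28, 19.3, 20.4 and 10.7 CPM in liver GOF. Their part in Cxcl9 and Cxcl10 was not tested. Il6, a cytokine, had 245, 91.6, 188 and 52.2 CPM in lung GOF, against 5.67, 5.87, 13.8 and 7.67 CPM in liver GOF (log2 fold change 4.14 with SE 0.51, adjusted p = 0.000166).

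Among the selectins, Sele, the inducible E-selectin, had 415, 131, 593 and 121 CPM in lung GOF, against 985, 3285, 2858 and 1809.8 CPM in liver GOF (log2 fold change -2.82 with SE 0.56, adjusted p = 0.00394). The lowest liver library, B, was above the highest lung library, E. Selp, P-selectin, overlapped between the organs, with 1562, 622, 1669 and 234 CPM in lung GOF and 1432, 5137, 2866 and 2192 CPM in liver GOF (log2 fold change -1.50, adjusted p = 0.0804), as did Vcam1 at 343 to 1792 CPM in lung GOF and 1086 to 3041 CPM in liver GOF (adjusted p = 0.273). A sum of 22 immediate early and heat shock genes, which dissociation can raise, was 24253 to 39162 CPM in lung GOF and 29324 to 40167 CPM in liver GOF (exact two-sided permutation p = 0.229); its part in these values was not tested.

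Fatty acid genes were called in both directions. Of 20 tested, 4 were higher (Cd36, Lpl, Acsl1 and Slc27a1) and 3 lower (Fabp4, Gpihbp1 and Slc27a3) in lung GOF, near the 14.5% and 10.8% of all genes, and 6 of the 7 were called alike in controls. Without liver GOF F or liver GOF G, 2 of the 4 higher genes passed. Cd36, a fatty acid translocase, had 1742, 2126, 1952 and 2917 CPM in lung GOF, against 261, 611, 267 and 328 CPM in liver GOF (log2 fold change 2.59 with SE 0.31, adjusted p = 0.000144). Fabp4, a fatty acid binding protein of capillaries, had 23.2, 8.82, 47.7 and 8.06 CPM in lung GOF, against 583, 705, 689 and 434 CPM in liver GOF (log2 fold change -4.77 with SE 0.57, adjusted p = 0.000141). Lpl, lipoprotein lipase, had 37.6 to 65.9 CPM in lung GOF and 1.92 to 7.64 CPM in liver GOF (log2 fold change 3.92 with SE 0.46, adjusted p = 0.000135). The organs did not overlap for these 3 genes. Slc27a3 had 28.4, 10.6, 9.56 and 9.47 CPM in lung GOF and 60.0, 47.6, 65.9 and 45.8 CPM in liver GOF (log2 fold change -1.90 with SE 0.36, adjusted p = 0.00271), and Acsl5 overlapped at 154 to 197 CPM in lung GOF and 169.9 to 184 CPM in liver GOF. Alveolar type 2 cells are also lipid-handling cells, and their sum was higher in lung.

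Genes of the VEGF and tip cell list were higher in lung in 9 of 22 tested and lower in 3 (Flt4, Nrp2 and Tek). The share called was 54.5%, against 25.4% of all genes, and 11 of the 12 were called alike in controls. Vegfa had 493, 657, 643 and 761 CPM in lung GOF, against 37.0, 43.4, 83.7 and 64.7 CPM in liver GOF (log2 fold change 3.49 with SE 0.28, adjusted p = 1.12e-05); alveolar epithelium is a known source of it. Apln, the apelin ligand, had 203, 305, 175 and 427 CPM in lung GOF, against 28.4, 39.2, 34.7 and 44.2 CPM in liver GOF (log2 fold change 2.93 with SE 0.29, adjusted p = 4.20e-05). Both genes were higher in each lung library. Kdr, the main VEGF receptor, did not pass the test, with 1116, 1929.6, 1222 and 2495 CPM in lung GOF and 1535, 2538, 1304 and 2201 CPM in liver GOF (log2 fold change -0.15, SE 0.30, adjusted p = 0.768).

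Coagulation genes were opposed. Of 16 tested, 7 were higher and 4 lower (F8, F2r, Entpd1 and Tfpi) in lung GOF, 68.8% called against 25.4% of all genes. In controls all 11 were called alike. F8 (ENSMUSG00000031196), coagulation factor VIII, had 13.7, 5.10, 6.35 and 4.53 CPM in lung GOF, against 426, 1204, 775 and 667 CPM in liver GOF (log2 fold change -6.68 with SE 0.49, adjusted p = 6.18e-06). All lung libraries were far below those of liver. Plat, the tissue plasminogen activator, had 1076, 594, 1015 and 523 CPM in lung GOF, against 217, 119, 228 and 208 CPM in liver GOF (log2 fold change 2.07 with SE 0.29, adjusted p = 0.000463), and Plaur, the urokinase receptor, had 355 to 565 CPM in lung GOF and 44.5 to 118 CPM in liver GOF (log2 fold change 2.58 with SE 0.29, adjusted p = 9.23e-05). F3, tissue factor, had 42.5, 48.0, 74.9 and 45.0 CPM in lung GOF, against 6.59, 6.52, 9.94 and 7.11 CPM in liver GOF (log2 fold change 2.81 with SE 0.24, adjusted p = 1.64e-05). In all 3 of these the lung libraries were the higher. The neutrophil and monocyte sum, 725 to 2159 CPM in lung GOF and 87.5 to 165 CPM in liver GOF, moved the same way as Plaur, and its part was not tested.

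Vasoactive genes differed in 15 of 20 tested (75.0%, against 25.4% of all genes). The 8 higher in lung GOF included Ace, angiotensin-converting enzyme, at 1511, 2742, 2132 and 2772 CPM in lung GOF and 126, 85.3, 145 and 97.1 CPM in liver GOF (log2 fold change 4.35 with SE 0.28, adjusted p = 2.45e-06). Ptgs2, the inducible cyclooxygenase, had 2808, 962, 2919 and 611 CPM in lung GOF, against 8.64, 6.05, 15.96 and 3.64 CPM in liver GOF (log2 fold change 7.75 with SE 0.72, adjusted p = 2.61e-05). Ptgis, prostacyclin synthase, had 169, 135, 134 and 84.4 CPM in lung GOF, against 14.0, 19.1, 24.0 and 8.05 CPM in liver GOF (log2 fold change 3.02 with SE 0.33, adjusted p = 8.46e-05), and Hpgd, which degrades prostaglandins, had 567 to 1188 CPM in lung GOF and 99.7 to 129.9 CPM in liver GOF (log2 fold change 3.04 with SE 0.24, adjusted p = 1.02e-05). Lung was higher in every library for these 4. The pericyte and smooth muscle sum given above moved the same way as Ptgis, and its part was not tested. The 7 lower included Edn1, the endothelin ligand, at 198, 132, 234 and 151 CPM in lung GOF and 545, 489, 671 and 449 CPM in liver GOF (log2 fold change -1.58 with SE 0.21, adjusted p = 0.000348). Nos3, endothelial nitric oxide synthase, had 93.0, 75.4, 114 and 66.3 CPM in lung GOF, against 232, 205, 259 and 191 CPM in liver GOF (log2 fold change -1.33 with SE 0.19, adjusted p = 0.000503). For both of these the liver libraries were all above those of lung; they were chosen after their values were seen. Ptgs1 had a log2 fold change of -1.92, opposite in sign to Ptgs2, and 12 of the 15 genes were called alike in controls. Ece1, which processes endothelin, did not pass the test, with 1025 to 1389.5 CPM in lung GOF and 1335 to 2123 CPM in liver GOF (adjusted p = 0.0835).

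BMP and TGF-beta signalling genes were called in both directions. Of 21 tested, 4 were higher (Acvrl1, Bmpr2, Smad9 and Tgfb3) and 8 lower in lung GOF, against 14.5% and 10.8% of all genes, 10 of the 12 called alike in controls; without liver GOF F or liver GOF G, 2 of the 4 passed. Acvrl1, the ALK1 receptor, had 1447, 2993, 1421 and 2860.5 CPM in lung GOF, against 172, 114, 213 and 158 CPM in liver GOF (log2 fold change 3.74 with SE 0.33, adjusted p = 1.83e-05). Eng, its co-receptor endoglin, was the opposite, with 1333, 2267, 1676 and 2175 CPM in lung GOF, against 4366, 4592, 4254 and 3844 CPM in liver GOF (log2 fold change -1.18 with SE 0.20, adjusted p = 0.00154). Tgfbr2, the type II TGF-beta receptor, had 512, 515, 483 and 401 CPM in lung GOF, against 1368, 1165, 1229 and 1048 CPM in liver GOF (log2 fold change -1.32 with SE 0.16, adjusted p = 0.000163). No gene of these 3 overlapped between organs. Tgfb2, a ligand, had 50.4 to 72.7 CPM in lung GOF and 133 to 248 CPM in liver GOF (log2 fold change -1.78 with SE 0.22, adjusted p = 0.000194). Smad6, an inhibitor of BMP signals, overlapped at 202 to 662 CPM in lung GOF and 196 to 319.7 CPM in liver GOF (adjusted p = 0.155), and passed without lung GOF B (adjusted p = 0.0350). Eng was chosen after its values were seen.

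Basement membrane genes were higher in lung in 7 of 19 tested and lower in 3 (Hspg2, Lama4 and Nid1), 52.6% called against 25.4% of all genes. In controls all 10 were called alike. Hspg2, the perlecan gene, had 251, 379, 345 and 344 CPM in lung GOF, against 1599, 2153, 1278 and 1540.5 CPM in liver GOF (log2 fold change -2.30 with SE 0.21, adjusted p = 2.57e-05), and was chosen after its values were seen. Col15a1 had 88.8, 43.0, 72.4 and 36.4 CPM in lung GOF, against 4.39, 4.19, 4.59 and 4.63 CPM in liver GOF (log2 fold change 3.77 with SE 0.30, adjusted p = 9.80e-06). Col4a3, Col4a4 and Lamb3 had log2 fold changes of 6.62, 5.24 and 9.66; they encode chains of alveolar basement membrane that epithelium is known to make. Col4a1, the common collagen IV chain, did not pass the test at 1213 to 1841 CPM in lung GOF and 909 to 1538 CPM in liver GOF.

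Cell cycle genes did not separate the organs beyond the background. Of 25 tested, none was higher and 2 lower in lung GOF (8.0%, against 25.4% of all genes), both genes of the replicative helicase: Mcm3 had 47.9, 45.3, 51.0 and 50.8 CPM in lung GOF, against 84.3, 101.1, 88.4 and 128 CPM in liver GOF (log2 fold change -1.03 with SE 0.16, adjusted p = 0.00088), and Mcm2 had 13.4 to 27.2 CPM in lung GOF, against 29.4 to 48.2 CPM in liver GOF (log2 fold change -0.80 with SE 0.26, adjusted p = 0.0453). Without liver GOF E, liver GOF F, liver GOF G, lung GOF B or lung GOF E, 1 gene was called. Pcna overlapped, with 56.9 to 70.6 CPM in lung GOF and 34.5 to 104 CPM in liver GOF, and passed without liver GOF B (adjusted p = 0.0356).

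Common endothelial genes were not equal either. Of 23 tested, 5 were higher (Icam2, Ecscr, Cd34, Cdh5 and Esam) and 6 lower in lung GOF, 47.8% called against 25.4% of all genes. In controls all 11 were called alike. Without liver GOF F, liver GOF G, lung GOF D or lung GOF F, 3 of the 5 passed. Mmrn2, a matrix protein of vessels, had 424, 379, 469.5 and 251 CPM in lung GOF, against 1009.7, 1027, 1102 and 966 CPM in liver GOF (log2 fold change -1.42 with SE 0.20, adjusted p = 0.000443). Robo4, an endothelial guidance receptor, had 292, 294, 223 and 304 CPM in lung GOF, against 557, 861, 579 and 613 CPM in liver GOF (log2 fold change -1.22 with SE 0.19, adjusted p = 0.000823). Ecscr, an endothelial surface protein, had 258, 378, 249 and 373 CPM in lung GOF, against 159.6, 129, 152 and 150.2 CPM in liver GOF (log2 fold change 1.10 with SE 0.18, adjusted p = 0.00123). The 3 genes were apart in every library. Pecam1, the sorting antigen, did not pass the test (log2 fold change 0.36, SE 0.17, adjusted p = 0.146).

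**Figure D5:**
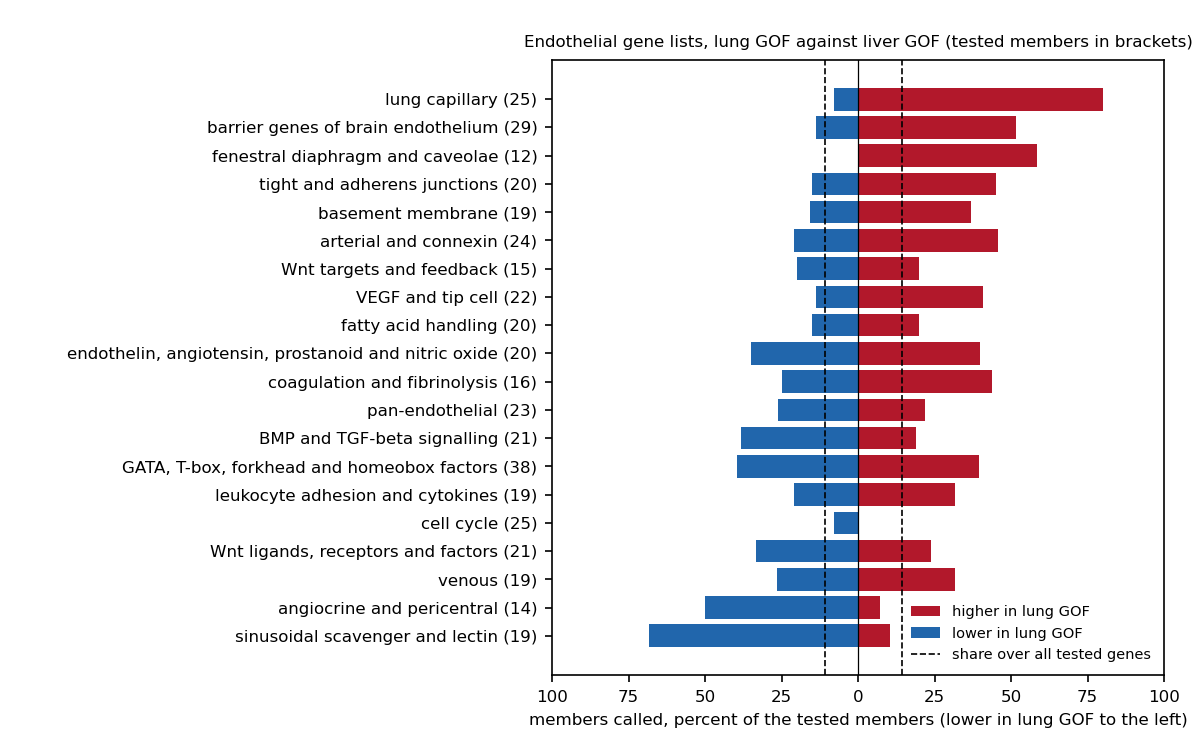
Percent of the tested members of each endothelial gene list called higher (red, to the right) or lower (blue, to the left) in lung GOF against liver GOF, with dashed lines at 14.5% and 10.8%, the shares over all genes. The lung capillary list reaches 20 higher of 25 tested and the sinusoidal list 13 lower of 19, while the cell cycle list has 2 lower of 25.

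The largest positive differences among abundant called genes included Sec14l3, Edil3, Scnn1g, Xpnpep2, Scnn1b, Ppp2r2c, Chia, Tmeff1 and Slc6a2. Sec14l3, Scnn1g, Scnn1b and Chia are known from lung epithelium. Sec14l3, a lipid transfer gene, had 283, 495, 412 and 631 CPM in lung GOF and no read in liver GOF, at least 18584-fold higher against 3 reads over the group. Scnn1g, a subunit of the epithelial sodium channel, had 84.8, 113, 78.7 and 130.1 CPM in lung GOF and no read in liver GOF, at least 4179-fold higher. Edil3, a secreted integrin ligand, had 98.2, 128, 68.7 and 192 CPM in lung GOF and no read in liver GOF, at least 5045-fold higher. All 3 were not detected at this depth in any liver library. The other 5 of these without a liver read (Xpnpep2, Scnn1b, Ppp2r2c, Chia and Tmeff1) were at least 1606-fold (Tmeff1) to 2286-fold (Xpnpep2) higher. The alveolar and airway sums given above were higher in the same libraries, and their part was not tested.

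In the other direction the largest differences under the same rule, which leaves out lists of other cells and genes averaging under 500 reads a library, were Tmem132e, Il13ra2, Adh6b, Gm7609, Ces1c, Gata4, Dnase1l3, Pzp, Oit3 and Serpina1e. Tmem132e, a membrane protein gene, had no read in lung GOF and 41.4, 109.8, 71.5 and 72.9 CPM in liver GOF, at least 2945-fold higher in liver GOF. Il13ra2, a decoy receptor of the cytokine IL-13, had no read in lung GOF and 3.36, 126, 25.3 and 23.1 CPM in liver GOF, at least 1697-fold higher in liver GOF, with liver GOF E far above the rest. Adh6b and Ces1c, an alcohol dehydrogenase and a carboxylesterase gene, had no read in lung GOF and 17.4 to 43.6 CPM and 13.8 to 23.1 CPM in liver GOF. Pzp and Serpina1e, plasma protease inhibitors that hepatocytes make, had 0 to 0.288 CPM and 0 to 0.446 CPM in lung GOF and 25.8 to 56.2 CPM and 5.47 to 80.3 CPM in liver GOF. The hepatocyte sum was higher in the same libraries, and its part was not tested; Ces1c and Serpina1e have near-identical paralogs, between which the counting could split reads.

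Whether an organ difference depended on genotype was tested directly, as the organ difference in GOF minus that in controls over all 16 libraries. Of 17536 genes tested without pairing, 1 was called (0.0057%): Nckap5 (ENSMUSG00000049690), whose log2 organ difference was 4.48 in GOF and 9.28 in controls (difference -4.81, SE 0.60, adjusted p = 0.00596). It had 279, 178, 228 and 196 CPM in lung GOF, against 16.5, 5.58, 7.84 and 9.81 CPM in liver GOF, and 226, 202, 144 and 185 CPM in lung controls, against 0, 0.448, 0.203 and 0.583 CPM in liver controls. Lung libraries overlapped between the genotypes, and the liver GOF libraries lay above every liver control. At an unadjusted p under 0.05 stood 1005 genes; limma-voom called 0 and DESeq2 47, and edgeR called 3 without liver GOF E and 2 without liver control E or lung GOF E. The genes next by p were Cdkn3, Cyp2s1 and Haao with a positive difference and Tcf7 and Ptprg with a negative one, at adjusted p of 0.345, 0.383, 0.383, 0.269 and 0.383. Cdkn3 and Haao had no read in lung controls, so the size of their fitted difference depends on the prior count.

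GOF and control libraries with the same letter in an organ varied together, and with those letters as a block 86 genes were called (0.49%), 27 with a more positive and 59 with a more negative organ difference in GOF; 54 genes were called without lung pair D or lung pair F, and 184 without lung pair E. Of the 1116 genes called between organs in GOF and not in controls, 16 had such a called difference. Another 49 were called between organs in both genotypes, 12 in controls and not in GOF, and 9 in neither. Tcf7, called between organs in controls and not in GOF, had a difference of -2.27 on the log2 scale with SE 0.31, adjusted p = 0.00747, its organ difference being 0.49 in GOF and 2.79 in controls. Dkk2 had a difference of -3.28 on the log2 scale with SE 0.37, adjusted p = 0.0022; in controls it had 14.0, 8.75, 22.9 and 11.5 CPM in lung and 7.71, 3.87, 12.7 and 30.0 CPM in liver, which overlapped. Abcb1a had a difference of -1.33 on the log2 scale with SE 0.25, adjusted p = 0.0395, with 134 to 225 CPM in lung controls and 20.2 to 37.2 CPM in liver controls, and its call was lost without liver pair B or F or lung pair D, E or F (adjusted p of 0.0503 to 0.0925). Apln had a difference of -1.18 on the log2 scale with SE 0.18, adjusted p = 0.0142, and its organ difference was called in both genotypes.

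Of the 19 leukocyte adhesion and cytokine genes, 3 had a more negative and none a more positive organ difference in GOF under this test: Sele, Vcam1 and Selp. The shares over all genes were 0.336% more negative and 0.154% more positive, and the median difference over the list was -0.04. The venous, VEGF and tip cell, and coagulation lists also had 3 more negative and none more positive, so these counts were not particular to adhesion genes. Sele had a difference of -1.33 on the log2 scale with SE 0.19, adjusted p = 0.00907, its organ difference being -2.82 in GOF and -1.65 in controls. Vcam1 had a difference of -1.02 on the log2 scale with SE 0.12, adjusted p = 0.00391, with 536 to 2316 CPM in lung controls and 695 to 1877 CPM in liver controls. Vwf had a difference of -0.78 on the log2 scale with SE 0.13, adjusted p = 0.0207, lost without lung pair F (adjusted p = 0.0554). Selp had a difference of -0.78 on the log2 scale with SE 0.15, adjusted p = 0.0471, lost without liver pair B, E or F or lung pair D or F (adjusted p of 0.0731 to 0.121). Bmx, an arterial kinase, had a difference of -1.25 on the log2 scale with SE 0.15, adjusted p = 0.00391: it was -1.78 in GOF and -0.54 in controls. Cd34, a sialomucin of vessels, had a difference of -1.003 on the log2 scale with SE 0.16, adjusted p = 0.0189, and Plat had a difference of -0.85 on the log2 scale with SE 0.14, adjusted p = 0.02, lost without lung pair D (adjusted p = 0.0561). Of these 7 genes none passed without pairing.

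Krt7, Olfm1, Loxl1, Sod3, Htra1 and Serpinb1a were among those with a more positive organ difference in GOF. Krt7, a keratin of simple epithelium, had a difference of 1.99 on the log2 scale with SE 0.19, adjusted p = 0.00125; it had 156, 262, 169.6 and 266 CPM in lung GOF and 2.11, 0.967, 3.96 and 1.60 CPM in liver GOF, against 116 to 263 CPM in lung controls and 3.31 to 9.90 CPM in liver controls. Olfm1 had a difference of 1.56 on the log2 scale with SE 0.16, adjusted p = 0.00125, with 38.1, 34.4, 55.0 and 38.9 CPM in lung GOF and 95.1, 123, 100.3 and 52.5 CPM in liver GOF, against 26.9 to 48.9 CPM in lung controls and 150.4 to 251 CPM in liver controls. Between liver GOF and liver controls the libraries did not overlap for Olfm1 and overlapped for Krt7. Sod3, the extracellular superoxide dismutase, had a difference of 1.71 on the log2 scale with SE 0.25, adjusted p = 0.00907, and Loxl1, a crosslinking enzyme of elastin, had a difference of 2.52 on the log2 scale with SE 0.35, adjusted p = 0.00747. Htra1, a secreted protease, had a difference of 1.12 on the log2 scale with SE 0.16, adjusted p = 0.00907 and was 0.73 in GOF and -0.36 in controls. Serpinb1a, a protease inhibitor with near-identical paralogs, had a difference of 2.06 on the log2 scale with SE 0.34, adjusted p = 0.02. Myof, Ptprg, Shroom4 and Galntl2 were among the negative ones, at differences of -1.28, -1.12, -0.999 and -1.36. Tmeff1, Cfi and Begain were called too, but each had no read in some group, so the size of their fitted difference depends on the prior count. The sum of 8 cholangiocyte genes, which include Krt7, was 444 to 748 CPM in lung GOF and 15.4 to 77.8 CPM in liver GOF, against 387 to 717 CPM in lung controls and 26.6 to 165 CPM in liver controls. The sum of 13 fibroblast genes, which hold none of these 6 genes, was 6596, 2662, 2528 and 2199.6 CPM in lung GOF, against 3012, 2659, 1077 and 2132 CPM in lung controls, higher in GOF for each letter; in liver it was 284 to 899 CPM in GOF and 407 to 1624 CPM in controls. The median paired difference over those 13 genes was 1.20, and 1 of them was called. The part of these sums in the more positive differences was not tested.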

How the data were processed

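The 16 libraries were made from CD31-sorted cells with an Illumina TruSeq RNA V2 kit and read as paired ends on a HiSeq4000, per the labels' protocols. Build mm9, DESeq2, HTSeq 0.6.1, SAMtools 0.1.19, Bowtie2 2.2.1 and TopHat2 2.0.11 appear in the submitters' processing notes. Neither annotation nor strand setting is given in the sources used here, so antisense, overlapping and near-identical genes could share reads. Per the file headers, the authors deposited raw, whole-number read counts per gene in 1 table per organ of 37991 entries, of which 3750 share a symbol with another and were kept apart by row. The authors' deposited signal column, a mean of normalised counts, served only to check the join of rows, and 16 deposited CPM columns were not used. Library sizes and tests did not use the line of column sums.

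Groups came from the labels, and replicates were the 4 biological samples of each condition. Lung GOF was compared with liver GOF over 8 libraries, and lung control with liver control over the other 8, by edgeR 4.0.16 (R 4.3.3) with filterByExpr (minimum count 10, minimum total 15), TMM scaling and the quasi-likelihood test, adjusted by Benjamini-Hochberg and called at 0.05; glmTreat tested against a 2-fold difference. The biological coefficient of variation was 0.487 in GOF and 0.506 in control. The organ difference in GOF minus that in control was tested over all 16 libraries. Fitted values used a prior count of 0.125. Folds against a group without reads used a floor of 3 reads over the group and intervals on counts are at 95%; both cover counting error only. Marker sums were tested with exact permutation tests. Alternatives used DESeq2 1.42.0 and limma 3.58.1. The scripts were also run on simulated counts, which had less spread than these data and no pair effect. That run does not show the error rates of the tests here. Within each group, every pair of libraries differed by more than sampling noise.

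The meaning of the replicate letters is not stated. Deviations from group means of same-letter GOF and control libraries were correlated across the genes that passed the filter in the 8 libraries of an organ. The values were 0.119, 0.11, 0.188 and 0.18 in lung (B, D, E and F) and 0.29, 0.238, 0.198 and 0.171 in liver (B, E, F and G). Over the 17536 genes of the paired test they were 0.091, 0.09, 0.152 and 0.133 in lung, where B and D fell under 0.1. In liver they were 0.23, 0.18, 0.154 and 0.123. Each library correlated best with its own letter in both gene sets, so letters were taken to pair genotypes within an organ. In lung that pairing is weak. The letters also divided the libraries by sex-linked genes. Xist had 215 to 622 CPM in all libraries of letters B, D and G, and 0.128 to 1.07 CPM in those of E and F. Ddx3y, a gene of the Y chromosome, had 0.064 to 0.891 CPM in B, D and G, and 81.2 to 134 CPM in E and F. Each group held libraries of both kinds, and the part of sex in the same-letter correlations was not tested.

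Members and gene lists were chosen with earlier results of these data known. The named genes were Ctnnb1, Axin2, Tcf7 and Lef1; the 10 largest called differences in each direction among genes with non-overlapping groups, an average of at least 500 reads a library in the higher group and no place in a list of other cells; per endothelial list the 4 called members of smallest adjusted p and the most abundant uncalled member; and up to 8 genes in each direction of the genotype-dependent difference (the 3 of smallest p where fewer than 3 were called), a rule applied also to the paired fit. Xist and genes of the Y chromosome were left out of the largest differences and of the genotype-dependent genes. Other genes were chosen after their values were seen, including list members that are named to spell out a small count. Promoter sequences are from RefSeq (GRCm38.p6), which had an entry for 107 of 155 named genes; no coordinates of the mm9 build are given. A few genes that these rules name are not reported here.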

Additional observations from a re-analysis of the deposited data

Results flagged for a closer look

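Of 327 groups of 4 libraries examined, 19 held a library far from the other 3, where chance flags about 1 in 20 groups. The gap of that library to its neighbour, as a share of the group's range, is given after each. Lung GOF B stood apart in 6: low for Slc6a2 (666 CPM against 1018 to 1077 CPM, 0.856) and high for Slc27a3 (28.4 CPM against 9.47 to 10.6 CPM, 0.938), Loxl1 (102 CPM against 64.4 to 64.8 CPM, 0.989), Cxcl9 (6.01 CPM against 0.348 to 1.05 CPM, 0.876), Alb (6.53 CPM against 0, 1.0) and the fibroblast sum (6596 CPM against 2199.6 to 2662 CPM, 0.895). Lung GOF E stood apart in 5: low for Robo4 (223 CPM against 292 to 304 CPM, 0.850) and high for Cgnl1 (153 CPM against 109 to 112 CPM, 0.920), F3 (74.9 CPM against 42.5 to 48.0 CPM, 0.8294), Tgfb2 (72.7 CPM against 50.4 to 53.6 CPM, 0.857) and the platelet and megakaryocyte sum (895 CPM against 78.2 to 123 CPM, 0.945). Lung GOF F was low for Tcf7l1 (27.1 CPM against 31.8 to 32.6 CPM, 0.856).

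Among liver GOF libraries, B was low for Adh6b (17.4 CPM against 40.9 to 43.6 CPM, 0.898) and for the T and NK cell sum (13.0 CPM against 34.9 to 37.4 CPM, 0.899) and high for the cholangiocyte sum (77.8 CPM against 15.4 to 23.2 CPM, 0.874). Liver GOF E was high for Nkd1 (122 CPM against 55.6 to 63.0 CPM, 0.887) and Igfbp7 (1811 CPM against 1228 to 1323 CPM, 0.838). Liver GOF F was high for Bst1 (25.1 CPM against 14.4 to 15.7 CPM, 0.881) and Lpl (7.64 CPM against 1.92 to 2.73 CPM, 0.859).

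The organ difference differed between the genotypes, with the letters as a block in edgeR's quasi-likelihood test, in 32 named genes, of which 30 are reported here. It was more negative in GOF, on the log2 scale, for Tcf7 (-2.27), Gm7609 (-5.96), Vwf (-0.78), Dkk2 (-3.28), Selp (-0.78), Apln (-1.18), Plaur (-0.997), Nckap5 (-4.71), Ptprg (-1.12), Myof (-1.28), Bmx (-1.25), Vcam1 (-1.02), Galntl2 (-1.36), Shroom4 (-0.999), Sele (-1.33), Abcb1a (-1.33), Cd34 (-1.003), Plat (-0.85) and Atp10a (-1.61). It was more positive for Xpnpep2 (6.19), Tmeff1 (6.49), Haao (8.18), Krt7 (1.99), Olfm1 (1.56), Loxl1 (2.52), Cfi (7.97), Sod3 (1.71), Htra1 (1.12), Begain (7.54) and Serpinb1a (2.06). The sizes for Haao, Cfi, Tmeff1, Begain, Xpnpep2 and Gm7609 depend on the prior count, because a group had no read. Atp10a (adjusted p = 0.0344) lost its call in 6 of 8 fits without 1 pair, with adjusted p up to 0.0822. These were the fits without liver pair B, E or G or lung pair B, D or F. Xpnpep2 lost its call without liver pair F or G, and Haao without liver pair B.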

How the results depend on the processing

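The 4033 organ differences in GOF were recounted under 21 alternatives, which included 6 scalings or filters, DESeq2, limma-voom and each library left out. Leaving out 1 library gave 3274 to 3896 (1968 to 2241 higher, 1306 to 1733 lower); in controls the 3940 became 3229 to 3942 (1823 to 2314 higher, 1287 to 1661 lower), the 1676 past the 2-fold test 1506 to 1700.0, and the 2839 shared 2505 to 2713. Lung and liver libraries share the letters B, E and F, but same-letter libraries of the GOF organs correlated at only -0.018, 0.065 and 0.02, under the 0.1 taken to show pairing, so the letters were not used to pair the organs and whether they do is undecided. With a replicate block over those 6 libraries the counts were 2022 in GOF (1267 higher, 755 lower), 2104 in controls (1255 higher, 849 lower), 1025 past the 2-fold test and 1514 shared; the same 6 libraries without a block gave 2663 in GOF (1040.0 lower) and 1869 shared, so part of that drop comes with fewer libraries. The single genotype-dependent gene became 47 with DESeq2, 0 with limma-voom, 86 with the pairs as a block and 1 to 3 without 1 library; the 86 became 54 to 184 without 1 pair, and the cause was not tested. Of 126 named genes called between organs, 116 stayed past the threshold in every alternative and none reversed, while 11 of 29 uncalled ones passed in at least 1; Gm7609 reversed in the paired difference (-6.44 without the lung pair of replicate B to 0.82 without that of E). Of the 32 paired differences, 23 stayed past the threshold without any single pair. The median of the list of Wnt targets ranged from -0.40 to 0.53, so no direction is given for it. No list with a median of at least 0.5 in size changed sign.

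Depth limits genes of few reads, and with 4 libraries a group a p above the threshold does not show equality. The labels do not state whether a letter shared by both organs marks 1 mouse, and apart from the fits with a block the tests treat all libraries as independent. Sorted cells carried epithelial, fibroblast and hepatocyte RNA that moved with organ, and the lists are named for cells in which their genes were described, not for cells seen here.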
